A study of Arabidopsis thaliana with 3 samples.

Results

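The comparison described here sets wild-type Arabidopsis thaliana vasculature grown with the peptide CEP1 directly against vasculature of cepr1-1, a mutant of the CEP1 receptor gene CEPR1. These are the states with added ligand and without the receptor, and the untreated wild type is used only afterwards, to place each gene. The CEP1-treated array holds RNA of wild-type seedlings grown for 8 days with 1 µM CEP1 in the medium. The cepr1-1 array holds RNA of mutant seedlings grown for 8 days without added peptide, and the untreated wild-type array that of wild-type seedlings on the same plain medium. All 3 arrays hold vascular strands picked by hand from 200 cotyledons after enzyme and sonication treatment, 1 array per group, so the differences below carry no replicate check, no test and no p-value. The number of arrays limits the precision. The arrays compared differ in genotype and in treatment together, so what each contributes cannot be told apart from their difference alone. The sources used here do not name the ecotype of either genotype.

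Values are log2 probe set values as deposited, and the difference is the CEP1-treated value minus the cepr1-1 value. Of 16505 genes with 1 annotated locus, taken at the brightest probe set of each, 8627 reached the median of their brighter array (3.07 for CEP1-treated and 3.1064 for cepr1-1, over these genes). These 8627 genes are the ones described. The median rule let 235 genes in at exactly the median. AT2G28920, at 2.74 with CEP1 and 3.1071 in cepr1-1, lay just inside it, and AT1G68780, at 2.78 and 3.1052 in the same order, just outside. On 8125 of the 8627 genes both arrays reached their medians. For the others the dimmer value is not shown to be above background, so their values are given without a linear fold, and they enter the counts and ranks only by their values as measured. A dimmer value just above its median is not shown to be above background either. Linear folds that rest on such a value are sizes as measured.

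CEP peptides are small secreted signals that nitrogen-starved roots send up the xylem, and the receptor kinase CEPR1 perceives them in the shoot vasculature. The shoot answers with CEPD1 and CEPD2, small glutaredoxins of the land-plant CC type that travel down the phloem and promote nitrate uptake in the root. The study asked which shoot genes answer to CEP1 through its receptor, and this comparison sets added ligand against missing receptor. CEPR1, CEPR2 and CEP1 themselves have no named probe set here, so neither the mutation nor the peptide could be checked on the arrays.

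A difference of 2-fold or more in favour of CEP1 over cepr1-1 was found for 123 genes, 1.43% of the 8627, and one in the other direction for 47, 0.545%. At 3-fold or more 41 genes (0.475%) were higher with CEP1 and 11 (0.128%) lower, and at 1.5-fold or more 323 (3.74%) were higher and 168 (1.95%) lower. The glutaredoxins CEPD1 and CEPD2, the sugar transporters SWEET4 and SWEET13, the vascular peptide gene CLE44 and the glucosinolate transporter gene GTR2 were among the higher genes, and other CC-type glutaredoxins were among the lower ones. With 16 added on the linear scale, which damps dim genes, 60 were higher and 9 lower, and with both arrays at or above their medians 96 and 28. The median difference of all 8627 genes was 0, the 5th percentile was -0.35 and the 95th was 0.49. On both arrays, 4738 genes (54.9%) had the same value. Values also recur between genes, since 62.2% of the genes share their CEP1-treated value with at least 1 other gene. How the deposited summary produced these repeats was not tested, and a difference of 0 is not a measurement of unchanged expression. Just past the threshold, AT1G15125 was higher at 4.82 with CEP1 and 3.82 in cepr1-1, and AT4G15660 was lower at 6.76 and 7.77. AT1G30070, at 4.94 with CEP1 and 3.95 in cepr1-1, and AT4G18840, at 2.49 and 3.49, lay just short of it.

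**Figure D1:**
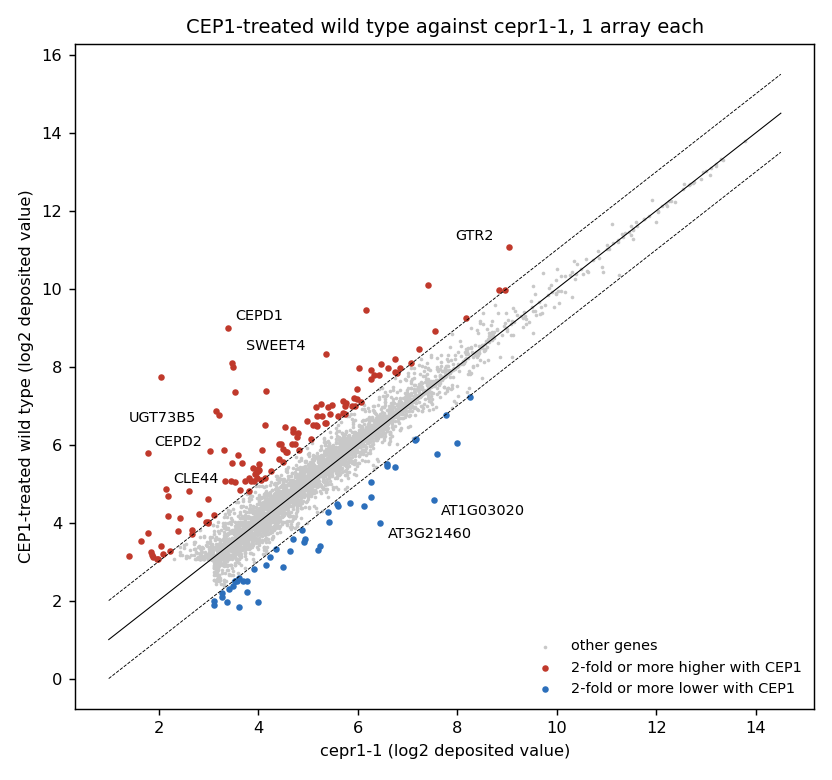
Each point is 1 of the 8627 genes, with its log2 value in CEP1-treated wild type on the vertical axis and in cepr1-1 on the horizontal axis, 1 array each. The dashed lines mark 2-fold, with 123 genes above the upper line (red) and 47 below the lower one (blue). CEPD1 and CEPD2 lie far above the diagonal, and the glutaredoxin loci AT1G03020 and AT3G21460 below it.

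Of the CC-type glutaredoxins, 20 of 21 listed loci were measured and 15 passed the median rule. By the 2-fold rule 2 of the 15 were higher with CEP1 and 5 lower, where all genes gave 1.43% and 0.545%. This list and the families below were chosen with earlier results of these data known, so such counts only describe. CEPD1 (AT1G06830) was 9.001 with CEP1 and 3.39 in cepr1-1, a difference of 5.61 or 48.8-fold, with 7.46 in the untreated wild type. The cepr1-1 value of CEPD1 stood just above the array median of 3.1064, so this fold is a size as measured. CEPD2 (AT2G47880) was 5.79 with CEP1 and 1.78 in cepr1-1, with 4.06 in the untreated wild type. For each of them the untreated value lay between the other arrays, at 0.73 of the way from cepr1-1 to CEP1 for CEPD1. The cepr1-1 value of CEPD2 lay under the median of its array, so the size of its span is not settled.

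Glutaredoxins of the same type were also among the lower genes, and AT1G03020 and AT3G21460 had the largest differences of this sign. AT1G03020 was 4.58 with CEP1 and 7.53 in cepr1-1, a 7.74-fold difference, and 6.23 in the untreated wild type. AT3G21460 was 3.98 with CEP1 and 6.45 in cepr1-1, 5.55-fold lower, and 5.41 untreated. AT3G62950 was 1.97 with CEP1, under the median of that array, 4.002 in cepr1-1 and 3.26 untreated. These 3 genes thus had their highest value without the receptor and their lowest with added peptide, the reverse of CEPD1 and CEPD2. AT3G62930 was 2.59-fold lower at 3.27 with CEP1 and 4.64 in cepr1-1.

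The loci from AT4G15660 to AT4G15700 form a tandem run. AT4G15660 was 2.01-fold lower with CEP1, at 6.76 against 7.77 in cepr1-1 and 7.74 untreated. AT4G15680 was 7.35 with CEP1 and 8.20 in cepr1-1, 0.85 lower on the log2 scale, and 8.23 untreated. AT4G15670 differed by -0.38 and AT4G15700 by 0.04, so the values as measured differed within the run. Signal shared between such close copies was not tested. Of the others that passed the median rule, AT2G47870 was 5.33 with CEP1, 4.57 in cepr1-1 and 5.33 untreated, AT2G30540 differed by 0.25, GRX480 by 0.21, AT5G18600 by -0.14 and ROXY2 was equal on both arrays. Below that rule lay AT5G11930, at 2.76 with CEP1 and 1.92 in cepr1-1, together with AT3G62960, AT4G33040, ROXY1 and AT4G15690.

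**Figure D2:**
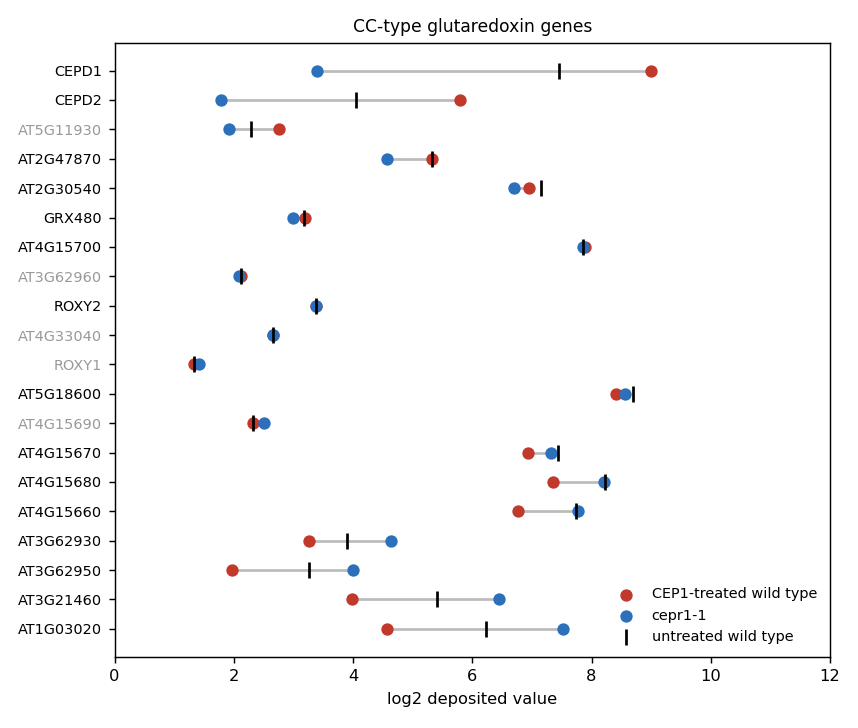
Log2 values of the 20 measured CC-type glutaredoxin genes with CEP1 (red), in cepr1-1 (blue) and in untreated wild type (black bar), 1 array each, ordered by the CEP1 minus cepr1-1 difference. Gene names in grey mark the 5 genes under the median rule. CEPD1 and CEPD2 have the red point to the right, and AT1G03020, AT3G21460, AT3G62950, AT3G62930 and AT4G15660 the blue one.

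Sugar transporters of the SWEET family, which let sugars leave cells along their gradient, had 16 measured members, of which 6 passed the median rule. SWEET4 was 8.33 with CEP1 and 5.36 in cepr1-1, 7.81-fold higher, and 6.64 untreated. SWEET13, a sucrose exporter, was 6.50 with CEP1 and 4.14 in cepr1-1, 5.14-fold higher, and 5.95 untreated. SWEET2 was 3.22 with CEP1 and 3.84 in cepr1-1, and SWEET11, which loads sucrose towards the phloem, was 11.5 on both arrays, with a difference of -0.03. Thus 2 of the 6 were 2-fold higher and none 2-fold lower, where all genes gave 1.43% and 0.545%, and SWEET2 was 1.5-fold lower.

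Among other transporters, 9 measured members of the nitrate and peptide transporter family (NPF) passed the median rule, a group assembled after the values were seen. GTR2 (NPF2.11), which imports glucosinolates into the phloem, was 11.07 with CEP1 and 9.04 in cepr1-1, 4.06-fold higher, and 10.51 untreated. Its partner GTR1 differed by 0.36, at 6.45 with CEP1 and 6.08 in cepr1-1. AT3G25280 (NPF4.2) was lower at 2.50 with CEP1 and 3.79 in cepr1-1. AT1G59740 was 8.05 with CEP1 and 7.23 in cepr1-1, and AT1G68570 6.31 and 5.68, so that at 1.5-fold 3 members were higher and 1 was lower, where all genes gave 3.74% and 1.95%. The low-affinity nitrate transporter gene NRT1.4 (AT2G26690) differed by 0.06. NRT2.5, under the median rule, was 1.99 with CEP1 and 2.08 in cepr1-1.

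The CLE peptide and alpha-expansin families each had 1 member that was 2-fold higher. CLE44 encodes a peptide that keeps procambial cells from turning into xylem, and it was 4.87 with CEP1, 2.15 in cepr1-1, under the median of that array, and 3.91 untreated. CLE41, whose peptide has the same activity, was 8.31 with CEP1 and 7.96 in cepr1-1, a difference of 0.35, and CLE26 differed by -0.22. In all, 1 of 5 CLE genes that passed the median rule was 2-fold higher, where all genes gave 1.43%. Alpha-expansins loosen cell walls, and 11 of their 14 measured genes passed. EXPA9 was 6.48 with CEP1 and 5.19 in cepr1-1, 2.45-fold higher. EXPA16 (4.12 with CEP1 and 4.75 in cepr1-1) and EXPA25 (4.87 and 5.50) were at least 1.5-fold lower, where all genes gave 1.95%. EXPA22 was 2.99 with CEP1, under the median of that array, and 3.91 in cepr1-1, so that 3 of the 11 were 1.5-fold lower as measured. Of the xyloglucan endotransglucosylases, which remodel the cell wall, 3 passed the median rule and none was 1.5-fold apart.

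UDP-glycosyltransferases, which attach sugars to small molecules, had 28 of 55 measured members past the median rule. This family too was chosen with earlier results of these data known, so its counts only describe. At 2-fold, 4 were higher with CEP1 and none lower, against 1.43% and 0.545% of all 8627 genes. At 1.5-fold 5 were higher and none lower, against 3.74% and 1.95%. UGT73B5 was 6.76 with CEP1 and 3.22 in cepr1-1, 11.6-fold higher, and 4.73 untreated. UGT87A2 was 6.98 with CEP1 and 5.16 in cepr1-1, 3.53-fold higher, with the untreated 5.50 nearer to cepr1-1. UGT73B4, next to UGT73B5 in the genome, was 3.39 with CEP1 and 2.04 in cepr1-1, under the median of that array. UGT73B2 was 5.15 with CEP1 and 4.14 in cepr1-1, whereas UGT73B1 differed by -0.15. The fifth, UGT76E11, was 3.32 and 2.72 in the same order, its cepr1-1 value also under that median. UGT85A7 was 3.93 with CEP1 and 3.61 in cepr1-1, close to each other and both above the untreated 2.58.

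Of 13 genes in the sulfate starvation list only 3 were measured, and 2 of them were at least 1.5-fold higher with CEP1, where all genes gave 3.74%. APS3, an ATP sulfurylase that activates sulfate, was 7.19 with CEP1 and 5.92 in cepr1-1, 2.40-fold higher. BGLU28, a beta-glucosidase gene induced in sulfate-starved plants, was 5.76 with CEP1 and 5.00 in cepr1-1, with both above the untreated 4.23. The other member, AT1G04770, was equal on both arrays. Beside it, AOP3, an enzyme that shapes glucosinolate side chains, was 9.97 with CEP1 and 8.96 in cepr1-1, and the sulfite reductase gene SIR, singled out after its value was seen, was 9.12 and 8.46. Beta-glucosidases as a family had 12 members past the median rule. At 1.5-fold 1 was higher, BGLU28, and 2 were lower as measured, BGLU16 and ATA27, where all genes gave 3.74% and 1.95%. ATA27 was 2.66 with CEP1, under the median of that array, and 3.46 in cepr1-1.

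**Figure D3:**
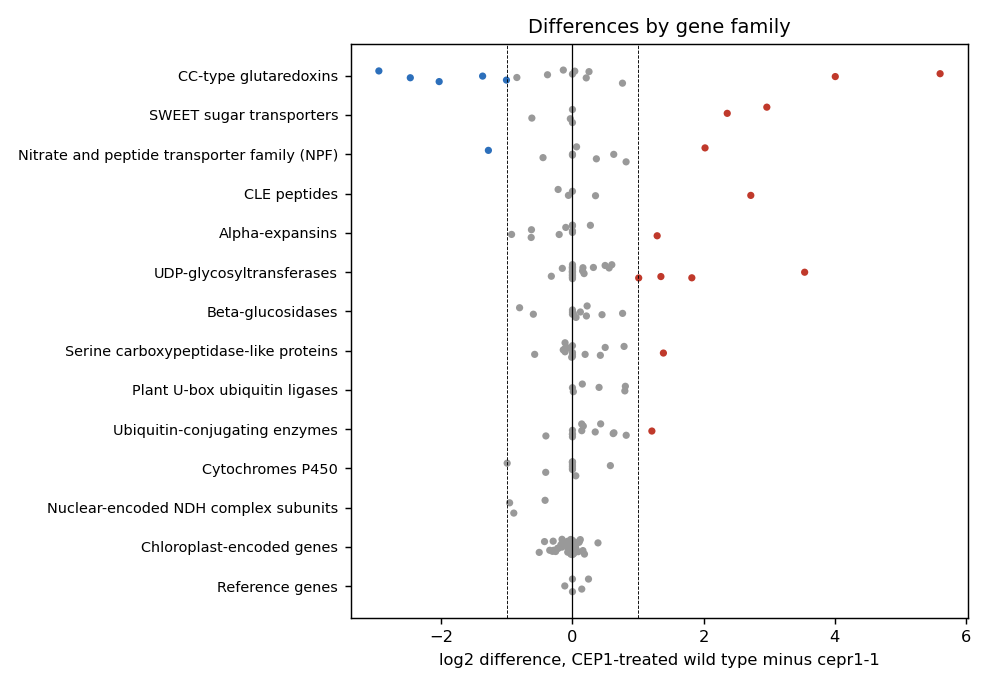
Each point is a gene that passed the median rule, placed by its log2 difference, CEP1-treated wild type minus cepr1-1, within its family; vertical scatter has no meaning. Red and blue mark 2-fold higher and 2-fold lower. CC-type glutaredoxins carry both signs past the dashed 2-fold lines, UDP-glycosyltransferases carry only the positive one there, and chloroplast-encoded genes stay inside. Of all 8627 genes, 1.43% were 2-fold higher and 0.545% 2-fold lower.

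Ubiquitin pathway genes were examined for the enzymes that conjugate ubiquitin and the U-box ligases that pass it on. Of 14 conjugating enzyme genes past the median rule, a group picked after the values were seen, UBC29 was 8.44 with CEP1 and 7.23 in cepr1-1, 2.32-fold higher, and UBC30, UBC33 and UBC36 were at least 1.5-fold higher, while none was lower by that much. Of all genes, 1.43% were 2-fold higher, 3.74% 1.5-fold higher and 1.95% 1.5-fold lower. UBC28 differed by -0.41. Of 6 U-box ligase genes, PUB24 was 7.64 with CEP1 and 6.84 in cepr1-1. PUB43 was 3.25 with CEP1 and 2.44 in cepr1-1, under the median of that array. PUB23 differed by 0.41 and PUB22 by 0.15, so none of the 6 passed 2-fold, where all genes gave 1.43% and 0.545%.

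Further higher genes with a symbol covered several kinds of enzyme. These included FMO, a flavin monooxygenase (8.07 with CEP1 and 6.47 in cepr1-1), and ATSK12, a GSK3-type kinase (8.20 and 6.75). LPR2, a multicopper oxidase of the phosphate response, was 6.02 and 4.69 in the same order. PWD (AT4G24450), listed also as ATGWD2 and as phosphoglucan water dikinase, was 8.10 with CEP1 and 7.07 in cepr1-1. The cytochrome c gene CYTC-2 was 7.96 with CEP1 and 6.85 in cepr1-1. TBL38 was 2.32-fold higher, PTI1-4 2.07-fold and AR781 2.06-fold. ACA.l was 5.07 with CEP1 and 3.46 in cepr1-1. SCPL32, a serine carboxypeptidase-like gene, was 3.79 and 2.40, and ATSMC2, of the chromosome condensation family, was 4.19 and 3.12. AT5G64120, listed as peroxidase 71, was 7.77 with CEP1 and 6.32 in cepr1-1.

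Most genes carry only a locus name in the tables used here, whatever their difference. Of the 170 genes 2-fold apart, 145 have no other symbol, and of all 8627 only 1099 have one. AT5G46871 was 7.73 with CEP1, 2.05 in cepr1-1 and 4.98 untreated, and since its cepr1-1 value lay under the median of that array, its place relative to CEPD1 is not settled. AT3G46880 was 22.5-fold higher at 7.98 with CEP1 and 3.49 in cepr1-1, AT3G24230 14.1-fold at 7.35 and 3.54, and AT3G22240 13.0-fold at 6.86 and 3.15. The neighbours AT1G67860 and AT1G67865 were 9.72-fold and 6.48-fold higher, the first at 9.45 with CEP1 and 6.17 in cepr1-1 and the second at 10.11 and 7.41. AT3G47090 was 5.83 with CEP1 and 3.03 in cepr1-1, and AT4G13180 was 5.87 and 3.32.

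**Figure D4:**
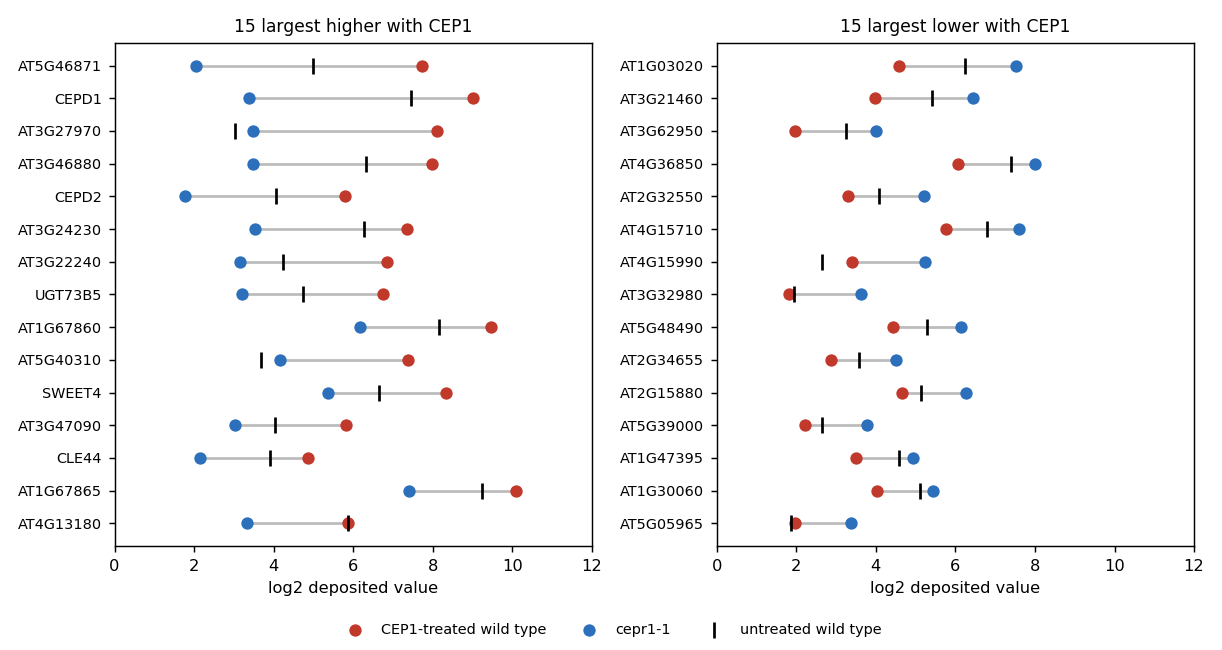
Log2 values of the 15 genes with the largest positive (left) and negative (right) CEP1 minus cepr1-1 difference, with CEP1-treated wild type in red, cepr1-1 in blue and untreated wild type as a black bar, 1 array each. On the left AT3G27970 and AT5G40310, and on the right AT4G15990 and AT5G05965, have the black bar outside the span between the coloured points.

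Beyond the glutaredoxins, AT4G36850 was 3.84-fold lower, at 6.05 with CEP1 and 8.00 in cepr1-1. AT2G32550 was 3.31 with CEP1 and 5.21 in cepr1-1, and AT4G15710, next to the tandem glutaredoxins by locus number, was 5.77 and 7.59. AT5G48490 was 4.43 with CEP1 and 6.13 in cepr1-1, and AT2G15880 was 4.66 and 6.27. Of 13 genes in the iron deficiency list 4 were measured and 3 passed the median rule. Of these, 2 were 2-fold lower, where all genes gave 0.545%. They are the iron-deficiency peptide genes IMA1 (AT1G47400) and IMA2 (AT1G47395), which promote iron uptake. IMA1 was 3.57 with CEP1 and 4.70 in cepr1-1, 2.18-fold lower, and IMA2 was 3.51 and 4.93, 2.67-fold lower. Their untreated values, 4.46 and 4.58, stood nearer to cepr1-1. The 2 genes are adjacent, and whether their probes share signal was not tested. Of the regulators in the same list, PYE had the value 5.62 on both arrays, and BHLH101, under the median rule, was 1.69 with CEP1 and 2.02 in cepr1-1.

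Only 2 of the 47 lower genes have a symbol of their own, where 1099 of all 8627 genes have one. SCRL26 was 2.09 with CEP1, under the median of that array, and 3.28 in cepr1-1. LrgB, the plastid glycolate and glycerate carrier, was 5.44 with CEP1 and 6.58 in cepr1-1, 2.21-fold lower. The next 10 lower genes with a symbol did not pass 2-fold. They include CYP71B36, EXPA22 and ATA27, whose values stand with their families, TOPP7 (3.38 with CEP1 and 4.17 in cepr1-1), LEA18 (3.20 and 3.90) and GLR2.9 (3.58 and 4.27), and the genes NdhL, NdhN, CHLM and SBPASE with plastid roles. NdhL (6.94 with CEP1 and 7.90 in cepr1-1) and NdhN (4.86 and 5.75) belong to the plastid NDH complex of electron transport, whose other measured nuclear-encoded subunit, NdhU, differed by -0.42. The chlorophyll synthesis gene CHLM was 7.24 with CEP1 and 8.02 in cepr1-1. Beside these, the mesophyll markers had 3 of 13 listed genes measured, with SBPASE at 7.45 and 8.25, RCA at 9.37 and 9.70 and PRK at 5.74 and 5.71. Their summed linear values were 892 with CEP1, 1186 in cepr1-1 and 960 untreated, most of each sum from RCA alone. The part of tissue mix in these differences was not tested. The 63 chloroplast-encoded genes measured had a median difference of -0.01 and ranged from -0.51 (psbN) to 0.39 (psbT). None of them was 1.5-fold apart, where all genes gave 3.74% higher and 1.95% lower.

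The other marker lists were thinly measured. Of 15 phloem markers 2 were measured, SWEET11 as above and OPS equal at 2.91, and no xylem or procambium marker of the 13 listed was. Of 11 epidermis and guard cell markers 4 were measured, with summed linear values of 483 with CEP1, 588 in cepr1-1 and 764 untreated. Most of each sum was GC1 alone, so the sums do not describe the list as a whole. FMA was 4.86 with CEP1 and 5.37 in cepr1-1, GC1 (AT1G22690) 8.81 and 9.08, with 9.49 untreated, SPCH 1.68 and 1.99, and MUTE equal at 1.25. Neither list reached 2-fold in a member. In RNA from whole strands, fewer cells of a type and less RNA per cell cannot be told apart.

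The reference, nitrate, cytokinin, cold, wound and CEP lists held no member that was 2-fold apart, which says little with at most 5 members past the median rule in a list and 1.43% and 0.545% of all genes called. The 7 measured reference genes had a median difference of 0 and ranged from -0.12 (GAPC2) to 0.24 (AT5G15710). In the primary nitrate response, the regulator genes HHO2 (AT1G68670) and HHO3 (AT1G25550) differed by 0.27 and 0.05. The cytokinin response genes ARR15 and RR16, both under the median rule, differed by 0.34 and -0.07. Cold and abscisic acid genes gave 0.54 for COR15A, 0.43 for KIN1, 0.13 for KIN2 and 0.10 for COR47, all under 1.5-fold. Of 12 wound-response genes listed 3 were measured, of which STZ, at 9.38 with CEP1 and 8.52 in cepr1-1, was past 1.5-fold, while CML37 and CML38 differed by 0.48 each. Of the CEP peptide genes 5 were measured and only CEP9 (AT3G50610) passed the median rule, at 3.17 with CEP1 and 3.50 in cepr1-1. Among the larger symbol families, 12 cytochrome P450 genes passed, of which CYP71B36 was 4.29 with CEP1 and 5.28 in cepr1-1, and 9 AGAMOUS-like genes, of which AGL80 was 4.74 and 4.13.

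Placing the untreated wild type showed where in the span between the arrays each of the 170 genes started. The position runs from 0 at the cepr1-1 value to 1 at the CEP1-treated value. The untreated value lay strictly between both for 141 genes, 82.9%, of which 104 are among the 123 higher and 37 among the 47 lower genes. Genes were picked for a wide span, so that an untreated value inside it is partly given by that choice, and no chance level is read from this share. Where the dimmer value lay under its array's median, the position is as measured and its exact size is not settled. The median position was 0.57 for the higher and 0.60 for the lower genes. With the span divided evenly at 0.333 and 0.667, 71 genes stood in its middle part, 44 in the part next to CEP1 and 26 in the part next to cepr1-1.

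In the middle part, AT5G46871, AT3G46880, CEPD2, UGT73B5, AT1G67860, SWEET4 and AT3G47090, together with AT1G03020 among lower genes, had the largest spans as measured. In the part next to CEP1, where most of the span lay between the untreated wild type and the mutant, were CEPD1, AT3G24230, AT1G67865, AT2G25510, SWEET13, AT3G15356, AT4G09760 and GTR2. AT3G15356 was 5.74 with CEP1, 3.60 in cepr1-1 and 5.20 untreated. In the part next to cepr1-1, most of the span lay between the untreated and the CEP1-treated wild type. Higher genes there included AT3G22240 (4.24 untreated), UGT87A2 and AT1G63530 (7.05 with CEP1, 5.27 in cepr1-1 and 5.42 untreated). Lower genes there included AT4G36850 (7.39 untreated) and both IMA genes.

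**Figure D5:**
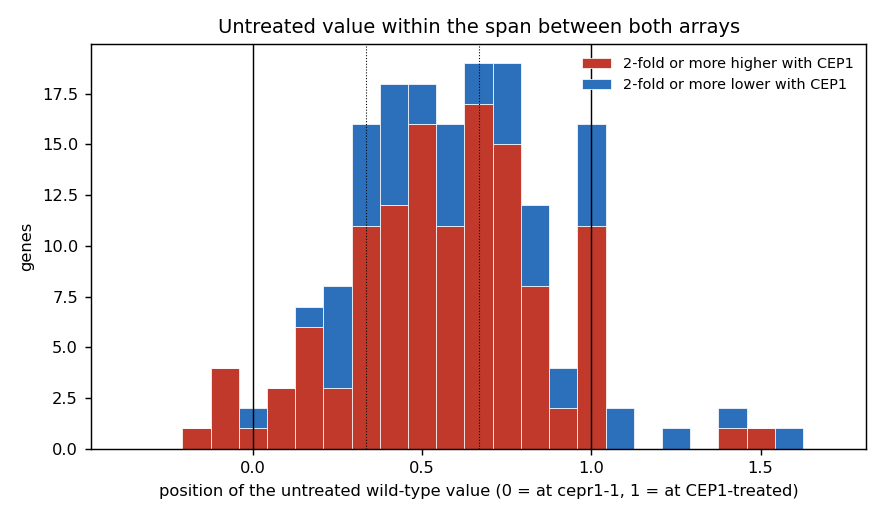
Number of genes (vertical axis) by the position of the untreated wild-type value in the span from cepr1-1 (0) to CEP1-treated wild type (1), for the 123 higher (red) and 47 lower (blue) genes, stacked. Dotted lines mark 0.333 and 0.667 of the span. Most genes lie between 0 and 1, and the bar centred on 1 includes 14 genes whose untreated and CEP1-treated values are identical.

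At the ends of the span, 14 genes had the same untreated and CEP1-treated value, a repeat of the kind described above and not a measurement of unchanged expression. AT4G13180 (5.87 on both wild-type arrays), ACA.l, AT2G24600 (5.81) and AT1G25520 (5.62) had the largest differences among these, and AT5G15780 and AT1G03106 were among the lower ones. AT2G42520 alone had the same untreated and cepr1-1 value, 5.40, with 6.95 under CEP1.

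Outside the span lay 14 genes. In 5 of them the untreated value was below that of cepr1-1 while CEP1 was above it. AT3G27970 was 8.10 with CEP1, 3.47 in cepr1-1 and 3.03 untreated, and AT5G40310 was 7.39, 4.17 and 3.68 in that order. AT3G13130, UGT73B4 and ATSMC2 are the others. In 9 genes the untreated value lay beyond the CEP1 value, so that peptide and mutation both stood on one side of it. AT1G48720 was 3.73 with CEP1, 1.78 in cepr1-1 and 4.70 untreated. AT4G15990 was 3.41 with CEP1, 5.24 in cepr1-1 and 2.66 untreated, and AT5G53720 was 2.29, 3.41 and 1.63 in that order. These genes, although 2-fold apart here, do not run from one end to the other through the untreated wild type.

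For 87 of the 170 genes, 51.2%, the untreated value was within 2-fold of both arrays, and the direct difference was at least 2-fold. These are 65 of the 123 higher and 22 of the 47 lower genes. AT2G32487, at 5.86 with CEP1, 4.08 in cepr1-1 and 5.07 untreated, had the widest span of them, followed by AT5G48490 (5.29 untreated), AT2G32210 (4.12, 2.43 and 3.33), AT2G32200 (7.92, 6.27 and 7.17), AT2G34655 (2.86, 4.50 and 3.58) and AT2G38740 (6.02, 4.42 and 5.25), each with CEP1 first and untreated last. FMO (7.13 untreated), ATSK12 (7.50), LPR2 (5.26), EXPA9 (5.82), APS3 (6.59), UBC29 (7.56), AOP3 (9.30), PWD (7.94), IMA1 and LrgB (5.73) also belong to this set.

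Some of the 170 genes neighbour each other. With a distance of at most 2 steps in the RefSeq gene order, 12 of the 170 (7.06%) had another of them as neighbour, against 2.27% of the 8627 genes that had one of the 170 as neighbour. They form 6 pairs, and in all 6 the members had the same sign. Since 123 of the 170 are higher, a shared sign is frequent among any of them, and no more is read from this count. The pairs are AT1G67860 with AT1G67865, UGT73B5 with UGT73B4, AT2G32200 with AT2G32210 and AT4G13180 with CLE44 among higher genes, and IMA2 with IMA1 and AT3G62930 with AT3G62950 among lower ones. Whether probes of these neighbours share signal was not tested.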

How the data were processed

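RNA of 3 groups was hybridised to 1 Affymetrix Gene 1.0 ST array each. The deposited values are on a log2 scale, read from their range, and, per the submitters' processing notes, the authors used Affymetrix Expression Console 1.3. The sources used here do not state the background correction, normalization, probe summary or genome build, and no background values come with the table, so signal over background is unknown. Of 38408 probe sets, 16722 have 1 gene in the platform annotation, 759 have several and 20927 are unlisted. Of the 16722, 16574 matched the RefSeq gene table (TAIR10.1) by gene ID, 96 carry a locus name and 52 gave no locus. The probe set with the highest mean over the CEP1-treated and cepr1-1 arrays stood for each locus, which left 16505 genes, 1762 of them with a symbol of their own.

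Differences were taken with no further normalization. A gene counts as called at 2-fold or more, since single arrays allow no test. The names CEPD1, CEPD2, IMA1, IMA2, NRT1.4, HHO2, HHO3, GC1, CEP9 and the CC-type family come from general knowledge of these loci. Named genes are the 15 largest differences of each sign, the 12 largest with a symbol, the CEP and CC-type glutaredoxin genes, up to 4 members of each list, the largest of each placement class and those at the thresholds. SIR, AT5G64120 and members of 4 families (NPF, peroxidases, conjugating enzymes, NDH subunits) were singled out after their values were seen. Not every gene taken by the rule is printed. Members and lists were chosen with earlier results of these data known. No sequences are printed, since no sequence tables were used here. The size rule was run on simulated data with differences planted only in genes well above the median. That run did not cover differences in dim genes or repeated values. Its untreated value was set midway by design, so it says nothing about the placement of the real genes. Alternatives were scaling, pseudocount, floor and probe set choice. Python 3.11.15, pandas 2.3.3, numpy 2.4.6 and statsmodels 0.14.6 were used.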

Additional observations from a re-analysis of the deposited data

Results flagged for a closer look

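Signal was also seen in probe sets that the comparison does not use, and none of it has a replicate. Of 443 probe sets listed with several genes and bright enough on the brighter array, 3 (0.677%) were at least 2-fold higher with CEP1 than in cepr1-1 and 2 (0.451%) at least 2-fold lower. Of 9354 probe sets without a listed gene and with an ID above the lowest listed one, 381 were higher and 249 lower, 4.07% and 2.66%. Of 830 with an ID below it, 103 were higher and 220 lower, 12.4% and 26.5%. The shares in both groups without a listed gene are far above the 1.43% and 0.545% of the genes described. Only in the group of 830 were more lower than higher. The sources used here do not say what these probe sets measure.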

How the results depend on the processing

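No paired analysis was possible because each group has 1 array, which also leaves no replicate to leave out. The 123 higher and 47 lower genes stayed within 1.5 times under quantile normalization (114 and 52), median centring (130 and 44), removal of the intensity trend (122 and 47), the mean of all probe sets of a locus (122 and 47) and the choice of probe set over 3 arrays (123 and 47). A pseudocount of 16, which damps dim genes, left 60 higher and 9 lower genes. The untreated value lay between both arrays for 63 of these, 91.3%, where the comparison above has 141, 82.9%. With the brighter array at its 75th percentile or above, 4262 genes remained, of which 101 were higher and 26 lower. With both arrays at their medians or above, 96 were higher and 28 lower. With no floor, 126 were higher and 69 lower. The share of higher genes among those called was 72.4%, and 68.7% after quantile normalization, 74.7% after centring and 87.0% with the pseudocount. It was 64.6% with no floor, 79.5% with the 75th percentile floor and 77.4% with both arrays at their medians or above. Of 157 named genes, those called at 2-fold kept their sign under every alternative above that kept them. A floor cannot turn a sign, nor can a pseudocount on the same probe set, so for these alternatives the outcome was given in advance. With the pseudocount, 48 of the 157 moved by 1.5-fold or more.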
